A study of Homo sapiens with 4 samples.

Results

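The replication-dependent histone cluster genes supply the H1, H2A, H2B, H3 and H4 proteins that package newly copied DNA. They were taken as every row of the deposited table whose gene name starts with HIST1H, HIST2H, HIST3H or HIST4H and does not contain PS, the mark of a pseudogene in these names. The rule gave 75 genes of 60623, and another 14 histone names held PS. It uses names only, no measured value. RNA was sequenced from T24, an established line of human bladder carcinoma cells. Cells of 2 libraries received a scramble control and those of the other 2 received a miR-146a-5p mimic, the means being given in the series' description and the overexpression in the sample labels. All 4 libraries share the line, and the labels give no dose, no time after transfection and no statement of separate cultures. The p-values below therefore measure only the spread between libraries, which may be technical.

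Histone genes of this kind lie in clusters, have no introns in their classical form and are read mainly in S phase, when DNA is copied. Their mRNA classically ends just after a short stem-loop instead of in a poly(A) tail, and the stem-loop is bound by SLBP, which guides 3′ end processing, translation and decay of the message. Some cluster genes also give longer polyadenylated mRNA, chiefly in cells that have left the cycle or are differentiating. Libraries were made from total RNA with an Illumina TruSeq RNA kit. The labels state neither poly(A) selection nor strand marking, and selection of poly(A) RNA would leave most of the classical message uncounted.

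Among the 75 genes, 17 had a mean of at least 1 CPM, a level in which the estimated count is scaled by the library's total. Another 13 had 0 counts in all 4 libraries, which allows up to 0.134 and 0.132 CPM in the scramble libraries and up to 0.139 and 0.148 CPM in the miR-146a-5p libraries (3 counts of each total, covering counting error only). All 75 together took 0.0113% and 0.0117% of the counts in scramble and 0.00807% and 0.00861% in miR-146a-5p, in replicate order as everywhere below. The testis genes of the list (4 genes) were at 0 throughout. The H2B family held 22 genes with 8 at or above 1 CPM, H2A 17 with 5, H4 15 with 2, H3 15 with 1 and H1 6 with 1. By cluster, 8 of 55 HIST1 genes, 8 of 15 HIST2 genes, 1 of 4 HIST3 genes and 0 of 1 HIST4 genes reached that level. Of the 73 genes found by identifier in GENCODE release 29 (GRCh38), 53 lie on chromosome 6, 19 on chromosome 1 and 1 on chromosome 12. That release calls 68 of them protein coding and 5 pseudogenes, so names without PS still include pseudogenes, 2 of which reached 1 CPM.

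**Figure D1:**
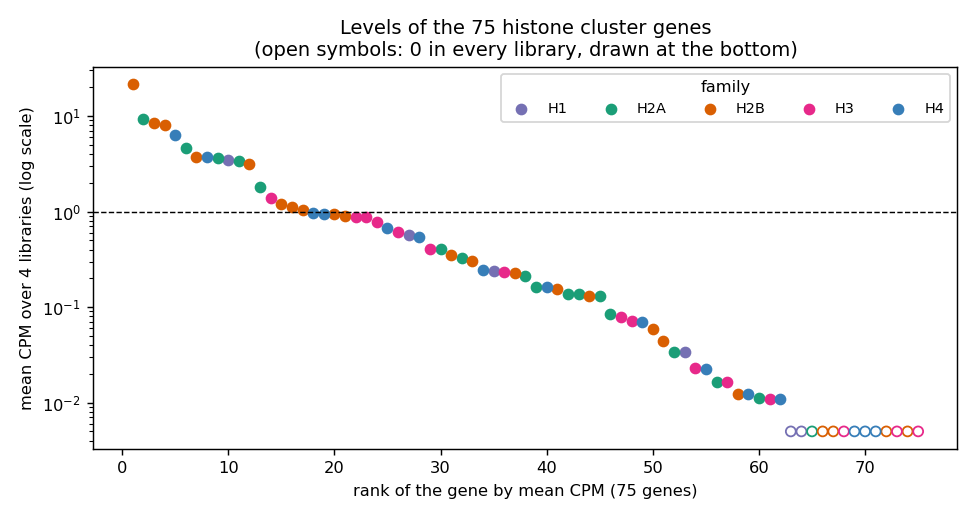
Mean CPM over the 4 libraries (log axis) against rank for the 75 genes, coloured by histone family, with a dashed line at 1 CPM. 17 genes lie on or above the line, HIST1H2BK is highest at 21.6 CPM, and 13 genes at 0 are drawn as open symbols at the bottom.

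The stem-loop was looked for in the GENCODE transcripts as a 6-base-pair stem starting with GG that closes a 4-base loop starting with TTT. It was present in the annotated transcripts of 31 of 73 histone genes and of 51 of 58603 other genes (0.0870%). Its absence from a model does not mean that the gene lacks it, since the search was exact and a model can end before it. The histone models without it had a median length of 411 bases. The 4 letter forms found were spread over 18, 5, 5 and 3 genes. A stem-loop of each form is shown here because the annotated models differ in how far they run past it. Capitals mark the stem-loop, and 5 bases are given on each side.
HIST1H2AC: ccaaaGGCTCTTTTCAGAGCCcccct
HIST2H2BE: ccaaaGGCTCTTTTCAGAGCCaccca
HIST1H2BD: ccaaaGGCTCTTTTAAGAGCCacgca
HIST2H4A: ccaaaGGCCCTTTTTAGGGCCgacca
HIST2H4B: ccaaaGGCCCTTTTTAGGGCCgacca
HIST1H4B: ccaatGGCCCTTTTCAGGGCCgccca
They lie, on GRCh38, at chr6:26124664-26124689 (plus strand), chr1:149886183-149886208 (minus), chr6:26158582-26158607 (plus), chr1:149833027-149833052 (plus), chr1:149860764-149860789 (minus) and chr6:26026896-26026921 (minus), in that order. HIST2H4A and HIST2H4B, copies of each other, carry the same letters throughout.

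In 21 genes the annotated model ran more than 100 bases past the stem-loop, and 9 of these reached 1 CPM, with a median level of 0.937 CPM. The longest stretch among the genes printed was 1729 bases in HIST2H2BE. In 10 genes the annotated transcripts with a stem-loop all ended within 100 bases of it, and 3 of these reached 1 CPM (median 0.364 CPM). In the other 42 the model held no stem-loop, and 5 reached 1 CPM (median 0.0520 CPM). Median model lengths of these classes were 1294, 506 and 411 bases, and CPM is not corrected for length, so level and length move together here. Their part in the difference was not tested.

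For HIST1H2BK, HIST2H2BE and HIST1H2BD, H2B genes described below, 120 bases before the RefSeq start (GRCh38.p14) are shown because H2B promoters are known for an octamer bound by Oct-1; capitals mark the octamer ATTTGCAT and the TATA box TATAAA.
HIST1H2BK: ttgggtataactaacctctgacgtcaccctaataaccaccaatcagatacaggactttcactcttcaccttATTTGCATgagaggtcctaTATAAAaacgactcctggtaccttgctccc
HIST2H2BE: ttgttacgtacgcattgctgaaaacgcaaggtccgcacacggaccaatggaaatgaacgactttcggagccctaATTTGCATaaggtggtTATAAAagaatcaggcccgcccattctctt
HIST1H2BD: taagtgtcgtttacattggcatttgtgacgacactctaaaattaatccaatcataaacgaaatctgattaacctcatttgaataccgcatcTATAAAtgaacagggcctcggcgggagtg
They lie at chr6:27146859-27146978 (minus), chr1:149886683-149886802 (minus) and chr6:26158001-26158120 (plus). Promoters were matched for 60 of the 75 genes. Within 250 bases before the start, on either strand, the octamer was found in 9 of 13 H2B and 11 of 16 H2A promoters, in 0 of the 6 H1, 12 H3 and 13 H4 promoters, and in 1.63% of 35116 promoters overall. Among the H2B genes at or above 1 CPM, 3 of 4 matched promoters held it.

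The mimic corresponds to mature miR-146a-5p (RefSeq, GRCh38.p14, chr5:160485372-160485393, plus strand), whose seed, bases 2 to 8, is in capitals.
miR-146a-5p: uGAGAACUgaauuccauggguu
Its 7-letter seed complement AGTTCTC, read on the transcript strand, occurred in the longest annotated transcript of 2 of 73 histone genes, HIST3H2A and HIST1H3E. Across all 58676 genes 11.3% held it. Histone transcripts are shorter (median 524 against 916 bases), and per 10000 bases the number of matches was 0.263 in histone genes and 0.723 in all genes. A match is a run of letters and not a measured target site.

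Before the levels, the libraries themselves need 1 remark. Totals were 20290055 to 22774090 estimated counts. Across genes, log CPM correlated at 0.925 between the scramble libraries and at 0.989 between the miR-146a-5p libraries. Ratios are therefore also given against each scramble library. In bulk RNA, fewer cells in S phase and less RNA per cell cannot be told apart. Leukocyte and endothelial marker sums were 12.6 to 16.9 and 0.134 to 0.542 CPM and overlapped between groups, beside 5423 to 7567 CPM for the T24 markers. The fibroblast sum moved with the group, from 2.28 and 2.63 CPM in scramble to 4.46 and 5.27 CPM in miR-146a-5p (ratio 1.98). Of its 6 genes, 4 lay above both scramble libraries (COL1A1, COL3A1, DCN and LUM). The share over all tested genes was 18.0%, but tested genes had passed a filter on low counts. Counts of these fibroblast genes were few, with 1 and 0 in scramble against 8 and 10 in miR-146a-5p for COL3A1. DCN had 2 and 0 against 4 and 2 counts, and LUM 1 and 0 against 1 and 1. COL1A1 had most of the sum (1.65 and 2.55 against 3.62 and 3.94 CPM). The part of the fibroblast sum in the histone values was not tested.

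Summed over the 75 genes, histone cluster RNA was 113.0 and 117.2 CPM in scramble and 80.7 and 86.1 CPM in miR-146a-5p. The groups did not overlap, and the ratio of means was 0.725 (115 ± 3.01 and 83.4 ± 3.78 CPM, SD, n = 2 each). The 17 genes at or above 1 CPM carried the difference, with 100.8 and 103.4 CPM against 69.87 and 69.86 CPM (ratio 0.684). The 58 genes below 1 CPM summed to 12.1 and 13.8 against 10.8 and 16.2 CPM, and there the groups overlapped. Of these 58, 26 were detected in all 4 libraries. By position 2 lay below both scramble libraries and 6 above both, beside 18.0% of all tested genes each way. That share is over genes with enough counts to be tested, which many of the 58 lacked. Among the 6, HIST2H3A and HIST2H3C are copies given equal shares of the same counts. HIST1H4C, HIST1H3F and HIST1H2BM, also among the 6, had means of only 0.163, 0.0713 and 0.0595 CPM. The other 50 overlapped or were at 0. HIST1H2BK alone made up 24.2% and 28.1% of histone counts in scramble and 16.1% and 15.4% in miR-146a-5p. Leaving it out moved the ratio to 0.827. No p-value is given for these sums.

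Not every family had the same ratio. H2B sums were 63.4 and 62.0 CPM in scramble and 38.6 and 42.1 in miR-146a-5p (ratio 0.643). HIST1H2BK gave 17.0 of the 22.4 CPM between these means. Without it H2B sums were 36.01 and 29.1 against 25.6 and 28.8 CPM (0.836), still without overlap but by a narrow gap. Of these sums, the pseudogenes HIST2H2BC and HIST2H2BD held 21.9 and 13.0 against 14.5 and 16.8 CPM, with overlap between groups. The median ratio over single H2B genes was 0.918. Of the 22, 4 lay below both scramble libraries, all among the 8 H2B genes at or above 1 CPM. The share over all tested genes was 18.0%, but not all of the 22 had enough counts to be tested. H2A sums were 26.0 and 30.2 against 21.1 and 20.4 CPM (0.738), and H1 sums 4.56 and 5.40 against 3.53 and 3.55 CPM (0.711). In these 3 families the groups did not overlap. H3 sums overlapped, at 4.60 and 6.74 against 4.20 and 5.90 CPM, and so did H4 sums, at 14.4 and 12.9 against 13.3 and 14.1 CPM (ratio 1.00). Whether the families differ from each other was not tested.

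No histone gene passed edgeR's quasi-likelihood test at an adjusted p of 0.05 in all 4 libraries, 29 of the 75 having passed the filter on low counts. The background was 0.0% of 14810 genes called. Their lowest adjusted p was 0.728, and 549 genes lay under 0.05 before adjustment. Unadjusted, 5 of the 29 histone genes were under 0.05, 4 of them lower with miR-146a-5p and 1 higher. HIST2H2AA3 among the lower and HIST2H2AA4, the higher, are near-identical copies, and with copy pairs summed 3 of 25 were under 0.05, all 3 lower. DESeq2 called 0 of the 62 histone genes it fitted, 3 being under 0.05 unadjusted. Those of the 62 with the fewest counts had no adjusted p and could not be called. The background, over the 16044 genes with an adjusted p, was 0.274% called higher and 0.0499% called lower. The authors' deposited table marked 0 histone genes as significant and gave no test for 13.

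By position, 9 of the 17 genes (52.9%) lay below both scramble libraries in both miR-146a-5p libraries, beside 18.0% of all tested genes. Only HIST2H2AA4 among the 17 lay above both, beside 18.0% of all tested genes. The median edgeR log2 fold change of the 17 was -0.46 and 14 were negative, beside a median of -0.00 and 50.1% negative over all tested genes. Against scramble replicate 1 alone, the miR-146a-5p mean was lower for 13 of the 17 genes with a median log2 ratio of -0.36. Against scramble replicate 2 alone it was lower for 11 of 17 with a median of -0.52. Over the 29 histone genes tested, 10 (34.5%) lay below both and 4 (13.8%) above both. The 17 are the genes with the most counts, not all 75.

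**Figure D2:**
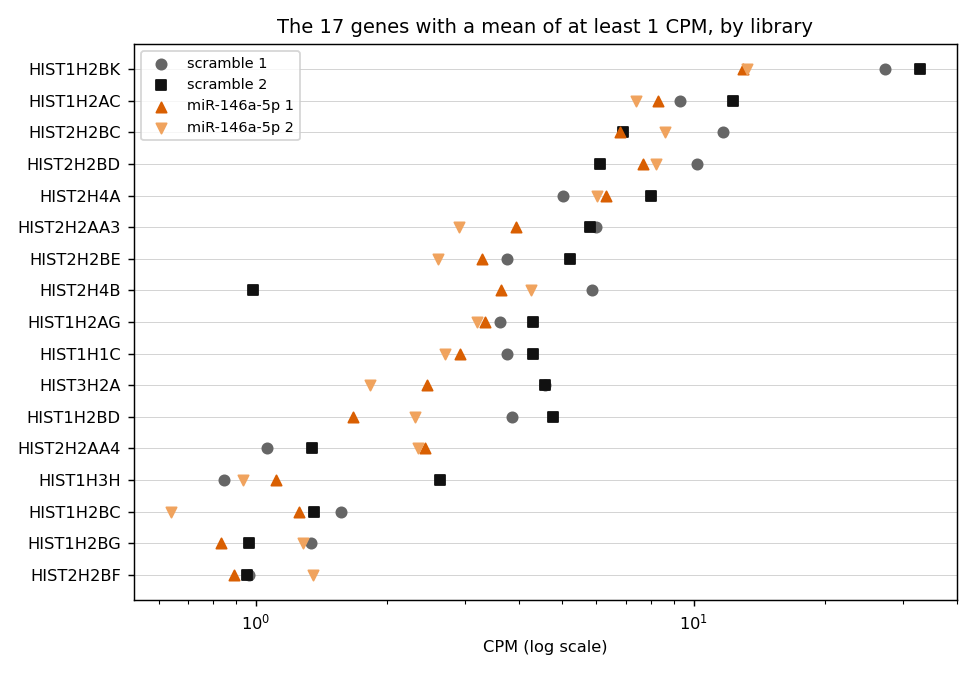
CPM (log axis) of the 17 genes with a mean of at least 1 CPM, 1 symbol per library. For HIST1H2BK, HIST3H2A, HIST1H2BD and HIST2H2AA3 the triangles (miR-146a-5p) lie clear of the grey and black symbols (scramble), while in HIST2H4B and HIST1H3H scramble replicate 2 stands far from scramble replicate 1.

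Fits with a single scramble library give a view of each control in turn, with that lone library assumed to vary like the close miR-146a-5p pair. With scramble replicate 1 left out, edgeR called 7 of 34 histone genes lower and 1 higher (HIST2H4B), beside 26.4% and 28.5% of all genes tested. The 7 were HIST1H2BK, HIST1H2BD, HIST3H2A, HIST2H2AA3, HIST2H2BE, HIST1H3H and HIST1H2AC. With scramble replicate 2 left out, it called 5 of 32 lower, namely HIST1H2BK, HIST1H2BD, HIST3H2A, HIST2H2AA3 and HIST2H2BC, and 0 higher, beside 11.7% and 10.1%. HIST1H2BK, HIST1H2BD, HIST3H2A and HIST2H2AA3 were called in both fits. With so many genes called, these counts are not a result about histone genes.

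HIST1H2BK encodes a core histone H2B, and its RNA is known to be polyadenylated as well as stem-loop ended. Its deposited model is 381 bases long (GENCODE chr6:27146418-27146798, minus strand), which holds no stem-loop. It had 27.4 and 32.9 CPM in scramble and 13.0 and 13.3 CPM in miR-146a-5p. Both miR-146a-5p values lay below both scramble values, a 2.30-fold difference of means. The edgeR log2 fold change was -1.20 ± 0.22 (SE; adjusted p = 0.970), the DESeq2 adjusted p was 0.0706, and the adjusted p in the authors' deposited table was 0.0718. The difference between groups exceeded the spread of the scramble pair, whose members differed 1.20-fold. The ratio was 0.479 against scramble replicate 1 and 0.399 against scramble replicate 2. Of its 50-base windows 74.1% also occur in other genes, most often H2BFS.

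Other H2B genes were read at lower counts. HIST1H2BD had 3.84 and 4.79 CPM in scramble and 1.67 and 2.32 CPM in miR-146a-5p. The groups did not overlap, with a log2 fold change of -1.11 ± 0.32 (edgeR adjusted p = 0.970). HIST2H2BE, whose long model runs far past the stem-loop, had 3.75 and 5.23 against 3.30 and 2.61 CPM. All miR-146a-5p values were again lower, but the scramble pair itself differed 1.39-fold and the log2 fold change was -0.60 ± 0.32 (edgeR adjusted p = 0.970). HIST1H2BC had 1.56 and 1.36 against 1.25 and 0.641 CPM, lower in both miR-146a-5p libraries. HIST1H2BG had 1.34 and 0.966 against 0.835 and 1.28 CPM, and HIST2H2BF had 0.967 and 0.955 against 0.894 and 1.35 CPM. These last groups overlapped. HIST2H2BF was the gene just inside the level limit at 1.04 CPM, and HIST1H4J was just outside at 0.958 CPM (0.670 and 1.23 against 0.603 and 1.33).

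Among H2A genes at or above 1 CPM, HIST3H2A showed the closest agreement of the scramble pair. It had 4.59 and 4.57 CPM in scramble and 2.47 and 1.82 CPM in miR-146a-5p, and the groups did not overlap (4.58 ± 0.016 and 2.15 ± 0.454 CPM, SD, n = 2 each). The scramble spread is smaller than counting error, since a count of 104 has a 95% Poisson interval of 85.0 to 126. Its log2 fold change was -1.09 ± 0.30 (edgeR adjusted p = 0.970), and the ratio was 0.467 against scramble replicate 1 and 0.470 against scramble replicate 2. HIST3H2A is also 1 of the genes with the 7-letter seed match, as described above. HIST1H2AC, with a model that runs 1128 bases past the stem-loop, had 9.33 and 12.3 against 8.31 and 7.39 CPM. HIST1H2AG had 3.62 and 4.31 against 3.34 and 3.20 CPM. In both genes the miR-146a-5p libraries were lower, with ratios of 0.841 and 0.639 for HIST1H2AC and 0.905 and 0.760 for HIST1H2AG against the scramble libraries in order.

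HIST1H1C, a linker histone H1 gene and the only H1 gene at or above 1 CPM, had 3.75 and 4.30 CPM in scramble and 2.92 and 2.71 in miR-146a-5p. The groups did not overlap, and the edgeR log2 fold change was -0.52 ± 0.27 (adjusted p = 0.970). HIST1H3H, the only H3 gene at that level, had 0.849 and 2.63 against 1.11 and 0.936 CPM. Its scramble libraries differed 3.10-fold, and the ratio was 1.21 against scramble replicate 1 and 0.389 against scramble replicate 2. No direction can be read from it.

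**Figure D3:**
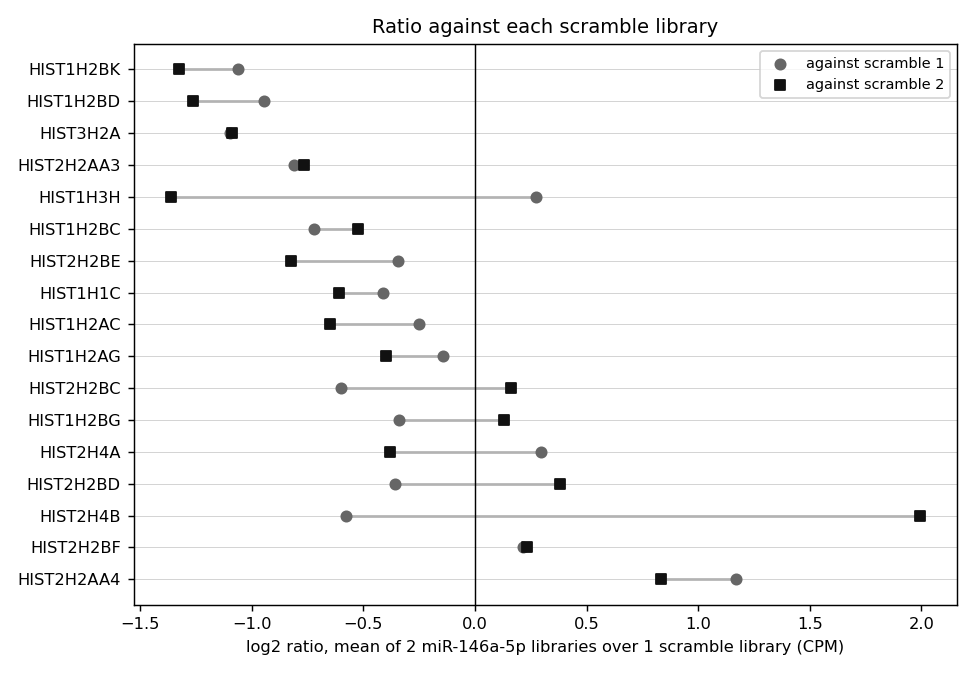
Log2 ratio of the mean of the miR-146a-5p libraries over scramble replicate 1 (circles) and over scramble replicate 2 (squares) for the 17 genes, in CPM, with a line at 0. Both symbols lie left of 0 for the upper genes except HIST1H3H, and they lie on opposite sides for HIST1H3H, HIST2H2BC, HIST1H2BG, HIST2H4A, HIST2H2BD and HIST2H4B.

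Near-identical copies in the HIST2 cluster made single-gene values uncertain. HIST2H2AA3 (chr1:149842188-149842736, minus strand) and HIST2H2AA4 (chr1:149851061-149851624, plus strand) encode H2A and share 100% and 97.1% of their 50-base windows with each other. HIST2H2AA3 had 5.99 and 5.81 CPM in scramble and 3.92 and 2.92 in miR-146a-5p, while HIST2H2AA4 had 1.06 and 1.34 against 2.44 and 2.35 CPM. Taken alone they point in opposite directions, with edgeR log2 fold changes of -0.78 ± 0.28 and 0.97 ± 0.33 (adjusted p = 0.970 for each). Their estimated counts were not whole but summed to 158, 163, 137 and 107, whole in every library within 0.02. The counts were thus divided between the copies, with 84.9% and 81.2% given to HIST2H2AA3 in scramble and 61.7% and 55.4% in miR-146a-5p. The sum was 7.06 and 7.16 against 6.36 and 5.27 CPM, lower in both miR-146a-5p libraries, with a log2 fold change of -0.29 ± 0.24 (edgeR adjusted p = 0.970).

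HIST2H4A and HIST2H4B, which encode H4, share 97.5% and 97.2% of their windows. HIST2H4A had 5.02 and 8.01 CPM in scramble and 6.31 and 6.005 in miR-146a-5p. HIST2H4B had 5.88 and 0.988 against 3.63 and 4.25 CPM. The share given to HIST2H4A was 46.1% and 89.0% in scramble, and 63.5% and 58.6% in miR-146a-5p. The counts summed to 244, 205, 214 and 208, and the summed log2 fold change was 0.02 ± 0.23 (edgeR adjusted p = 0.991). HIST2H4B was the gene called higher without scramble replicate 1, where 89.0% of the counts in the remaining scramble library were given to HIST2H4A. HIST2H3A and HIST2H3C, copies encoding H3, were given equal shares of 29, 41, 39 and 42 counts.

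HIST2H2BC and HIST2H2BD are the pseudogenes among the 17, and their exons overlap on opposite strands. HIST2H2BC had 11.7 and 6.90 CPM in scramble and 6.80 and 8.61 in miR-146a-5p, and HIST2H2BD had 10.2 and 6.10 against 7.68 and 8.20 CPM. The groups overlapped in both. Their counts again summed to whole numbers, 490, 296, 312 and 341, and the summed log2 fold change was -0.16 ± 0.33 (edgeR adjusted p = 0.971). HIST2H2BC and HIST2H2BD share 39.6% and 71.0% of their windows with each other. Since strand is not stated, reads within that shared part cannot be assigned to 1 partner.

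**Figure D4:**
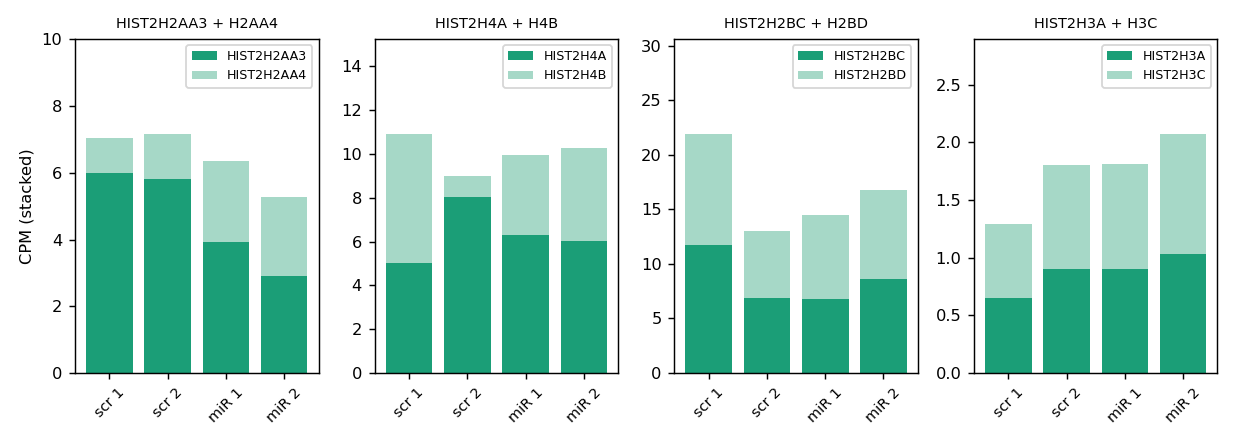
Stacked CPM of 4 pairs of overlapping or near-identical genes in the scramble (scr) and miR-146a-5p (miR) libraries, axes from 0 and scaled per pair. The split within HIST2H4A and HIST2H4B moves from 46.1% to 89.0% between the scramble libraries while their summed counts move from 244 to 205.

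Levels between genes were compared on the authors' TPM, which is scaled by length. HIST1H2BK was highest with 68.5 and 61.7 TPM in scramble and 28.8 and 26.6 in miR-146a-5p. The groups lay apart on this scale too. HIST2H2AA3 was highest of H2A (mean 19.2 TPM), HIST2H4A of H4 (17.0 TPM), HIST1H1C of H1 (10.6 TPM), and HIST1H3B of H3 (1.98 TPM). HIST1H3B was spread widely, from 0.230 to 3.71 TPM within the miR-146a-5p pair, so its place in the order is not firm. TPM did not follow count over length alone: HIST1H4J and HIST1H4H had 0.958 and 0.946 mean CPM with models of 373 and 397 bases, yet 9.75 and 2.22 mean TPM. Summed TPM of the 75 genes was 224 and 206 in scramble and 149 and 174 in miR-146a-5p, without overlap.

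H2A and H2B genes often start back to back from a shared stretch. In GENCODE, 13 H2A-H2B pairs lay on opposite strands with starts at most 500 bases apart. In 3 pairs both genes reached 1 CPM, in 5 pairs a single gene did, and in 5 pairs neither did. Of the 3, HIST2H2AA3 with HIST2H2BD and HIST2H2AA4 with HIST2H2BC each join an H2A copy with split counts to a pseudogene. The remaining pair is HIST1H2BC and HIST1H2AC. Levels of partners ranged from nearly equal (HIST1H2AM and HIST1H2BO, each at 0.131 CPM) to far apart. The most unequal pairs were as follows. HIST1H2BK had a mean of 21.6 CPM beside 0.137 CPM for HIST1H2AH, whose start lies 330 bases away. HIST2H2BE had 3.72 CPM beside 0.137 for HIST2H2AC, and HIST3H2A had 3.36 CPM beside 0.229 for HIST3H2BB. In HIST1H2BC and HIST1H2AC, 218 bases apart, the miR-146a-5p over scramble ratios were 0.648 and 0.726. CPM compares genes here without correction for length.

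A list of 8 known polyadenylated histone genes held HIST1H1C, HIST1H2AC, HIST1H2BC, HIST1H2BD, HIST1H2BJ, HIST1H2BK, HIST2H2BE and HIST2H2AA3. They summed to 55.8 and 67.3 CPM in scramble and 34.6 and 32.2 in miR-146a-5p, a ratio of 0.542. By position 7 of the 8 lay below both scramble libraries, beside 18.0% of all tested genes. HIST2H2AA3 shares split counts with HIST2H2AA4, which is not on the list. Summed, these copies had a ratio of 0.818 (edgeR unadjusted p = 0.298). HIST1H2BK gave 17.0 of the 28.2 CPM between the means, and without it the list summed to 28.5 and 34.4 against 21.6 and 18.9 CPM (0.644). The other 67 genes summed to 57.1 and 49.9 against 46.2 and 53.9 CPM, a ratio of 0.935 with overlap. The list was drawn up with earlier results of these data known, and no test compares it with the rest. By edgeR 0 of its 7 tested genes were called, with 3 at an unadjusted p under 0.05, HIST2H2AA3 among them. DESeq2 called 0 of 8, and the median edgeR log2 fold change was -0.62.

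RNAs that carry no poly(A) tail were set beside the histone genes. The list of 25 genes summed to 67.8 and 100.7 CPM in scramble and 60.0 and 128.8 in miR-146a-5p. RN7SK, a regulator of transcription elongation, had 4.73 and 10.2 against 4.08 and 10.6 CPM, RMRP, the RNA of RNase MRP, had 2.23 and 6.02 against 0.650 and 4.44 CPM, and RPPH1, the RNA of RNase P, had 1.81 and 2.48 against 1.04 and 3.09 CPM. In each the second replicate of both groups was higher, so these RNAs moved between libraries of a group. Histone genes below 1 CPM had the same order of libraries within each group, 12.1 and 13.8 against 10.8 and 16.2 CPM. The part of this in the histone values was not tested.

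RN7SL2 (31.6 and 40.1 against 28.6 and 57.1 CPM), the RNA of the signal recognition particle, varied in the same way, and RNU5A-1, a spliceosomal RNA, had 0.670 and 0.427 against 1.44 and 0.690 CPM. Of the 6 genes in the list tested, 0 were called by edgeR or DESeq2, and 0 had an unadjusted p under 0.05 in either.

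Genes of histone mRNA production summed to 1448 and 1292 CPM in scramble and 1363 and 1399 in miR-146a-5p. Of 26 listed, 24 were found and 24 tested, and 0 were called by edgeR or DESeq2, the median log2 fold change being 0.04 and 1 gene lying under 0.05 before adjustment. SLBP had 122 and 156 CPM in scramble and 121 and 135 in miR-146a-5p, with overlap. NPAT, the coactivator of histone gene transcription, had 46.7 and 6.54 against 45.4 and 46.8 CPM, so scramble replicate 2 alone was low. This was not particular to NPAT. CCNE2 had 54.4 and 11.1 against 56.1 and 68.5 CPM, and TUT7 32.8 and 4.70 against 27.2 and 29.6 CPM. From the lists below, ATRX had 219 and 16.8 against 191 and 216 CPM, and POLA1 111 and 30.2 against 74.9 and 78.4 CPM. SLBP, UPF1 and LSM10 were instead higher in scramble replicate 2 than in scramble replicate 1. CCNE1, cyclin E1, which acts upstream of NPAT, had 6.34 and 7.73 against 13.7 and 15.7 CPM, a log2 fold change of 1.06 ± 0.24 (edgeR adjusted p = 0.970). UPF1, which takes part in histone mRNA decay, had 114 and 152 against 94.2 and 103 CPM, and LSM10, of the U7 snRNP, had 19.4 and 26.6 against 17.8 and 14.9 CPM. Both lay lower in each miR-146a-5p library and neither passed.

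S-phase genes gave no common direction, with 30 tested, 0 called by edgeR or DESeq2, 1 at an unadjusted p under 0.05, and a median of -0.07. Of the 30, 8 lay below and 8 above both scramble libraries, beside 18.0% of all tested genes each way. Sums over the S-phase genes were 4502 and 5096 against 4857 and 4738 CPM. MCM6, of the replicative helicase, had 99.9 and 93.6 against 161 and 160 CPM (log2 fold change 0.73 ± 0.17, edgeR adjusted p = 0.970). PCNA, the replication clamp, had 263 and 240 against 336 and 332 CPM. MCM2 had 249 and 347 against 223 and 209 CPM, so helicase subunits lay on different sides.

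Replication-independent variants mostly give polyadenylated mRNA from genes outside the clusters. The list summed to 3529 and 4180 CPM in scramble and 3740 and 3684 in miR-146a-5p. Of 12 tested 0 were called by edgeR or DESeq2, 0 had an unadjusted p under 0.05 in either, and the median log2 fold change was -0.05. H3F3B, an H3.3 gene, had 1619 and 1819 against 1443 and 1443 CPM, H1F0, a linker histone, had 624 and 735 against 847 and 840 CPM, and H2AFY2, a macroH2A gene, had 3.62 and 6.59 against 7.29 and 6.60 CPM. Histone chaperones had 0 of 21 called by edgeR or DESeq2, 1 at an unadjusted p under 0.05, and a median of 0.09. By position 4 of the 21 lay below both scramble libraries and 6 above both, beside 18.0% of all tested genes each way. Those with the smallest p were on the lower side. The import factor IPO4 had 74.8 and 103 against 54.9 and 56.3 CPM, HIRA 57.0 and 76.4 against 48.5 and 50.3 CPM, and UBN1 84.9 and 101 against 68.5 and 79.2 CPM. In these 3 genes each miR-146a-5p library was below both scramble libraries.

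**Figure D5:**
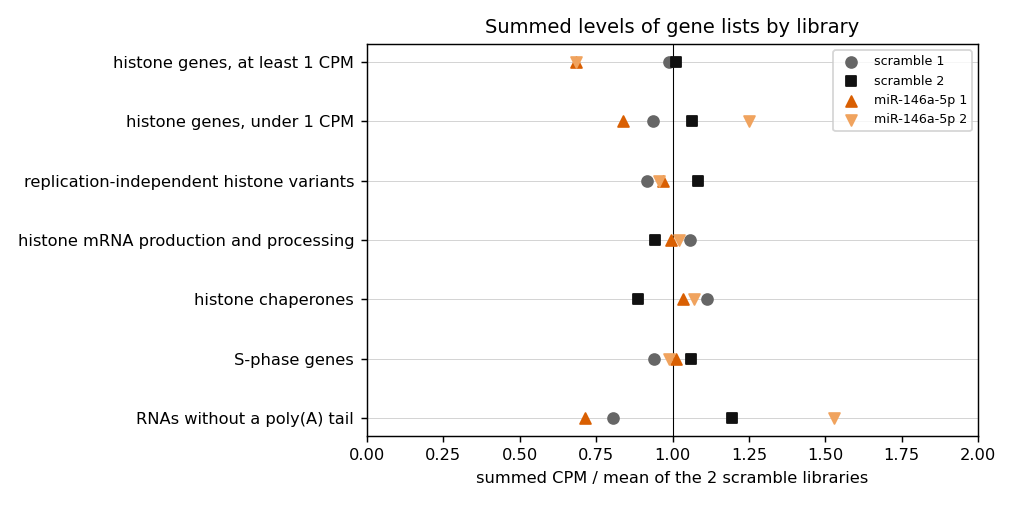
Summed CPM of each gene list in each library, divided by the mean of the scramble libraries (linear axis from 0). Histone genes at or above 1 CPM sit near 0.684 in both miR-146a-5p libraries, while the RNAs without a poly(A) tail are high in the second replicate of each group.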

How the data were processed

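The deposited table gives, per the file headers, an estimated count and a TPM per gene and library. Genome build hg19, HISAT2 2.0.1, HTSeq 0.6.1, cutadapt 1.9.1 and an unversioned DESeq2 are listed in the submitters' processing notes, without roles. The authors' fold (ratio), log2 fold change and p-value come from the same deposited table. Estimated counts were not whole for 34.3% of values in genes detected in all 4 libraries, and the sources used here do not give the tool that split them.

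CPM was the estimated count over the library's total. For tests, counts were rounded and 14810 genes were kept by filterByExpr (minimum count 10, minimum total 15). The main test was edgeR 4.0.16 (R 4.3.3) quasi-likelihood with TMM factors and group as the only term, two-sided, Benjamini-Hochberg adjusted over all genes tested, threshold 0.05. DESeq2 1.42.0 was an alternative. Scripts were tested on simulated data. Alternatives were other size factors, no filter, each library left out, the replicate number as a block, GC and length offsets, other CPM limits, and, chosen after seeing the data, summed copy pairs and sums without HIST1H2BK or the 5 pseudogenes. Coordinates are those of GENCODE 29 and RefSeq, not of hg19.

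The genes and lists were chosen with earlier results of these data known. Named genes were the 12 with the highest mean CPM, the 5 largest increases and 5 largest decreases among genes of at least 1 CPM, any gene past the threshold, those next to that limit, the highest TPM of each family, and, from other lists, up to 3 with the smallest p plus SLBP, NPAT, RN7SK, RMRP and RPPH1. Other genes named in the text were chosen after their values were seen.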

Additional observations from a re-analysis of the deposited data

How the results depend on the processing

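For the 17 histone genes the median log2 fold change stayed negative under every alternative run, from -0.35 (without scramble replicate 2) to -0.57 (GC and length offsets). Histone genes called lower ranged from 0 to 7 and called higher from 0 to 1 when each library was left out, and calls in the other lists from 0 to 62; no alternative with all 4 libraries called any of them. Over all genes edgeR called 0, DESeq2 52, edgeR without scramble replicate 1 or 2 8421 and 3343, and without miR-146a-5p replicate 1 or 2 12 and 8. The replicate numbers were not shown to pair the samples (correlation of deviations -0.15); with the replicate block 5 genes and 0 histone genes were called, and the median was -0.45. The summed ratio of 0.725 became 0.809 without the 5 highest genes and 0.827 without HIST1H2BK, and 28 and 5 genes reached limits of 0.5 and 5 CPM. With the replicate block HIST2H2BD moved to 0.0069 and HIST1H4J to -0.011 in log2 fold change. With GC and length offsets RN7SK moved to 0.30 and RPPH1 to 0.22, and with those offsets and the replicate block to 0.20 and 0.11. With a library left out, log2 fold changes ranged from -0.59 to 0.16 for HIST2H2BC, -0.35 to 0.38 for HIST2H2BD, -0.37 to 0.31 for HIST2H4A, -0.57 to 1.95 for HIST2H4B, -1.35 to 0.29 for HIST1H3H, -0.45 to 0.16 for HIST1H2BG, -0.13 to 0.45 for HIST2H2BF, -0.64 to 0.53 for HIST1H4J, -2.65 to 0.18 for RMRP, -0.32 to 0.67 for RN7SL2, -0.29 to 0.078 for SLBP, -0.0067 to 2.82 for NPAT, -0.86 to 0.63 for RN7SK and -1.06 to 0.54 for RPPH1; the cause was not tested. Depth limits the genes near 1 CPM, where HIST1H2BC, for example, had 13 to 35 counts a library.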
